A study of Mus musculus with 12 samples.

Results

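The semaphorins, plexins, neuropilins, ephrins and EPH receptors are the guidance ligands and receptors through which cells attract, repel or sort from one another. They were taken as every gene whose symbol begins with Sema, Plxn, Efna, Efnb, Epha or Ephb, together with Nrp1 and Nrp2. The rule found 52 of the 19150 genes in the deposited table: 20 semaphorins, 9 plexins, 2 neuropilins, 8 ephrins and 13 EPH receptors. RNA sequencing covered 6 populations of cells that flow cytometry had sorted from dorsal skin of 5-day-old mice (P5) of the outbred CD1 strain, an age when hair follicles grow. The populations were melanocytes (Mc), the pigment cells of the follicle, the outer root sheath (ORS), the outer epithelial layer of the follicle, the matrix (Mx), the proliferating epithelium that forms the hair, the dermal sheath (DS), the mesenchymal layer around the follicle, the dermal papilla (DP), the mesenchymal cluster at its base, and dermal fibroblasts (DF). Each population had 2 libraries, 12 in all. All 12 share strain, age and tissue, and the labels name no treatment and no allele. The study's question is about how the dermal sheath contracts. The markers used to sort each population are not given in the sources used here, so a member used in a sort would differ by that choice.

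Semaphorins are secreted or membrane-bound proteins that act mostly as repellents of growing axons and migrating cells. Plexins are their receptors, and most secreted class 3 semaphorins bind a neuropilin, which pairs with a plexin to pass the signal on. EPH receptors are receptor tyrosine kinases whose ligands, the ephrins, are themselves fixed to the cell surface, so that signals run in both directions where cells touch and keep neighbouring tissues apart. In skin these families are known for placing nerves and vessels and for the movement of melanocyte precursors and keratinocytes.

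Levels are given as FPKM, which corrects reads for how long a transcript is and how large a library is. Summed over all genes, a library held from 373066 to 524040 FPKM. Its depth in reads is unknown, and on the log2 scale the SD between the 2 libraries of 1 population had a median of 0.21 to 0.27 over genes. The labels do not say whether both libraries of 1 population are from different animals, so each p-value reflects only how far these libraries lie apart, and that may be technical. In bulk libraries, fewer cells of a type and less RNA per cell cannot be told apart. Each population held its own defining markers at a higher summed level than any other population, except that the fibroblast list overlapped between DS (5151 to 6785 FPKM) and DF (6650 to 8438 FPKM). The fibroblast libraries also held pigment cell RNA: the median of 7 pigment genes (Dct, Tyrp1, Tyr, Pmel, Mlana, Slc45a2 and Oca2) stood at 48.5% and 46.4% of the melanocyte level in the 2 DF libraries, against at most 0.545% in any ORS, Mx, DS or DP library. Of the lists of other cell types, the summed level reached at most 274 FPKM for endothelial, 90.04 for adipocyte, 88.1 for Schwann cell, 57.8 for pericyte, 38.8 for macrophage and 11.1 for skeletal muscle markers in any library. Markers of basal keratinocytes and ORS summed to 101 to 145 FPKM in DF, 111 to 142 in DS and 139 to 232 in DP. In ORS they summed to 3960 to 3978. Hair matrix and shaft markers summed to 92.5 to 138 FPKM in DF, 51.3 to 52.1 in DS and 105 to 169 in DP. In Mx they summed to 1091 to 1215. The fibroblast list summed to 420 to 493 FPKM in Mx, with Dcn at 482 and 407. The part of such RNA in the member levels was not tested. Because of the pigment cell RNA, member calls that involve fibroblasts were also made with that RNA subtracted, and those that changed are named.

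At 1 FPKM or more in both libraries, 25 members were present in Mc, 34 in ORS, 32 in Mx, 40 in DS, 43 in DP and 39 in DF. Of the 52 members, 14 reached that level in all 6 populations and 6 reached it in none (Epha5, Epha6, Epha10, Plxnb3, Sema5b and Sema6b). By mean level, Mc held the highest value of 7 members, ORS of 11, Mx of 12, DS of 8, DP of 7 and DF of 7. Both libraries of the leading population stood above every other library for 6 of these members in Mc, 5 in ORS, 11 in Mx, 4 in DS, 5 in DP and 1 in DF. No share over all genes was computed for these counts, so they describe the members only and are not read as a trait of the families. The member with the highest mean over the 6 populations was Nrp2. All members together made up between 0.0944% and 0.184% of a library's summed FPKM, least in DS replicate 1 and most in ORS replicate 2.

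**Figure D1:**
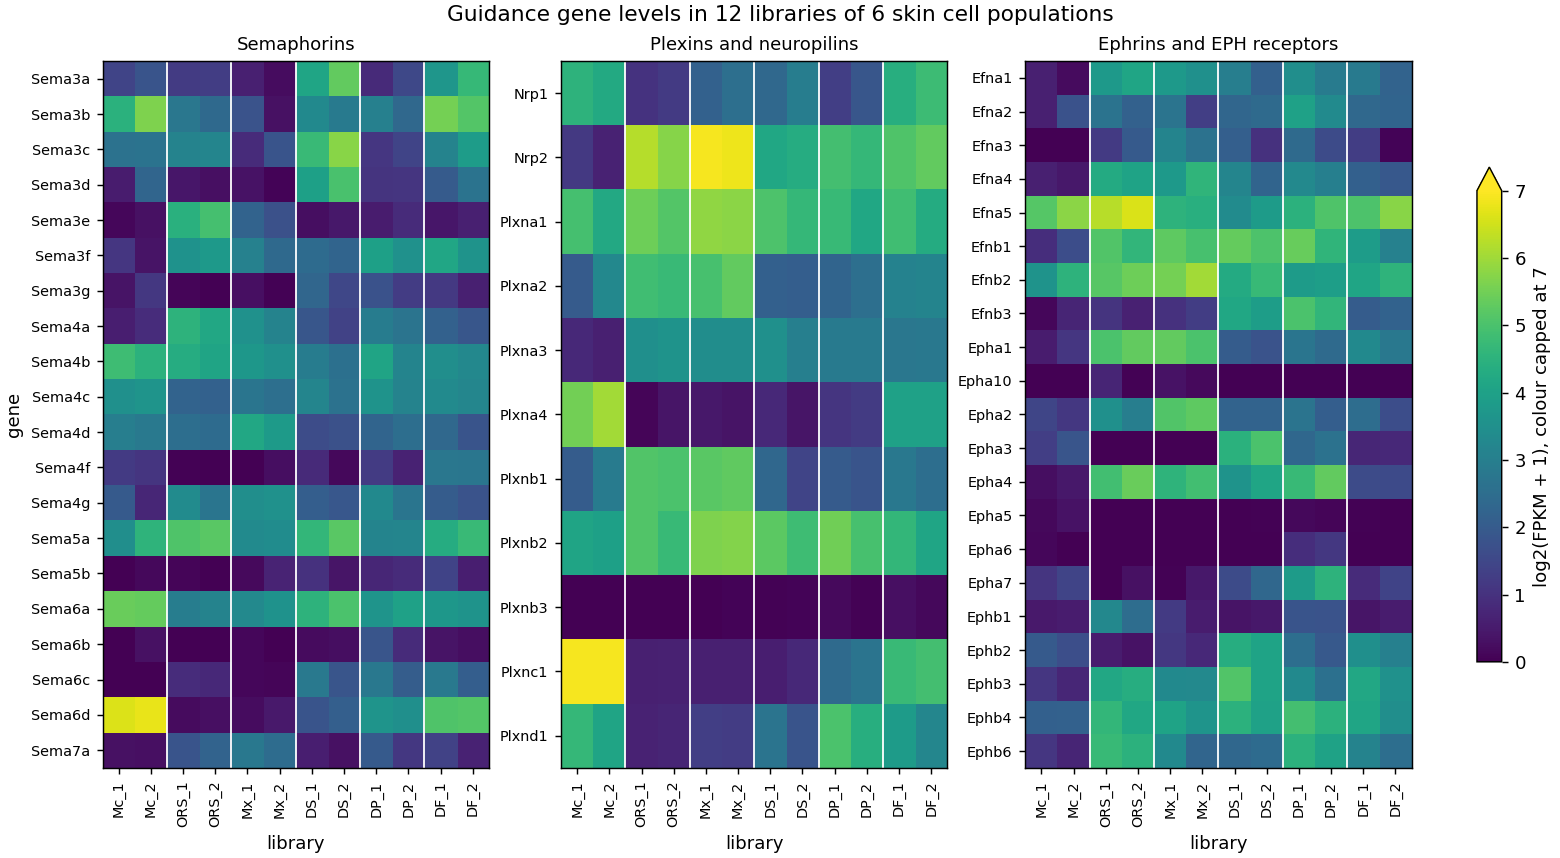
Levels of the 52 members, as log2(FPKM + 1) with the colour capped at 7, in the 12 libraries (columns, 2 for each of Mc, ORS, Mx, DS, DP and DF), with semaphorins, plexins and neuropilins, and ephrins and EPH receptors in separate panels. Plxnc1, Plxna4 and Sema6d are brightest in the Mc columns, Nrp2 in the Mx columns, and Sema3a, Sema3c, Sema3d and Epha3 in the DS columns.

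Each of 6 comparisons between populations called between 9 and 30 of the members different. A gene was tested where it reached 1 FPKM in at least 2 of the libraries fitted, and called where its adjusted p was under 0.05 and its log2 difference at least 1 in size. Between DS and DF, 45 members were tested, 7 were higher in DS and 10 lower, while 7.56% of all tested genes were called higher and 6.6% lower. The 7 were Efnb1, Efnb3, Epha3, Epha4, Sema3c, Sema3d and Sema6a, and the 10 were Efna5, Epha1, Nrp1, Plxna2, Plxna4, Plxnc1, Sema3b, Sema3f, Sema4f and Sema6d. Between DS and DP, 7 of 45 were higher in DS (Epha3, Ephb2, Ephb3, Sema3a, Sema3c, Sema3d and Sema5a) and 10 lower (Efna2, Epha4, Epha7, Ephb1, Ephb6, Plxnc1, Plxnd1, Sema3f, Sema4a and Sema6d), against 7.96% and 7.56% of all tested genes. On the TPM scale the split was 6 higher and 16 lower, and the median log2 difference of all tested genes was -0.40, against -0.09 as deposited. The share of all tested genes called on that scale is not given here, so this split is not read as a trait of the members. Between DP and DF, 9 of 45 were higher in DP (Efna2, Efnb1, Efnb3, Epha3, Epha4, Epha7, Ephb1, Ephb6 and Sema4g) and 9 lower (Nrp1, Plxna4, Plxnc1, Sema3a, Sema3b, Sema3c, Sema4f, Sema5a and Sema6d), against 8% and 7.16% of all. These 3 comparisons share libraries and came from 1 fit of the 6 dermal libraries. Against both other dermal populations, DS was higher in 3 members (Epha3, Sema3c and Sema3d, beside 4.7% of tested genes), DP in 5 (Efna2, Epha4, Epha7, Ephb1 and Ephb6, beside 4.8%, with Ephb1 at 1 FPKM only in the 2 DP libraries of this fit, so that it could be tested only by being high there) and DF in 6 (Nrp1, Plxna4, Plxnc1, Sema3b, Sema4f and Sema6d, beside 3.94%). These DF values include the pigment cell RNA. With it subtracted, Plxna4, Plxnc1 and Sema6d were at 0 in both DF libraries, so their direction was not determined. The call of Nrp1 between DS and DF was lost with subtraction alone. By family, 5 of 10 EPH receptors and 3 of 8 ephrins tested were higher in DP than in DF, beside 8% of all tested genes. None was lower (limma, with 0 ephrins and 1 EPH receptor lower at an unadjusted p under 0.05), beside 7.16% of all. Of 17 semaphorins tested, 1 was higher and 6 were lower. The calls of Efna2, Efnb1, Epha3, Ephb1 and Ephb6 were not kept in every fit without 1 library. An alternative chosen after seeing the data had the pigment cell RNA subtracted and DF rescaled. There 4 EPH receptors (Epha3, Epha4, Epha7 and Ephb1) and 1 ephrin (Efnb3) were higher in DP, and Ephb2 was called lower. Of all tested genes, 17.7% were then called higher in DP and 6.05% lower. Epha3 was at 0 in both DF libraries after subtraction, so its direction in this alternative was fixed by that 0.

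The other 3 comparisons came from 1 fit of all 12 libraries, in which 46 members were tested. Between ORS and Mx, 6 members were higher in ORS (Efna5, Ephb1, Ephb6, Sema3c, Sema3e and Sema5a) and 3 lower (Epha2, Nrp1 and Sema4d), with 4.59% and 2.51% of all tested genes called. Follicle epithelium (the mean of ORS and Mx) was higher than dermal mesenchyme (the mean of DS, DP and DF) in 13 members (Efna1, Efna4, Efnb2, Epha1, Epha2, Epha4, Nrp2, Plxna2, Plxnb1, Sema3e, Sema4a, Sema4d and Sema7a) and lower in 16, with 15.4% and 20.8% of all tested genes called. The 16 were Efnb3, Epha3, Epha7, Ephb2, Nrp1, Plxna4, Plxnc1, Plxnd1, Sema3a, Sema3b, Sema3c, Sema3d, Sema3g, Sema4f, Sema6c and Sema6d. With quantile normalization the split was 16 higher and 12 lower, while the median log2 difference of all tested genes was 0.09, against -0.07 as deposited. The share of all tested genes called with that normalization is not given here, so this split describes the members only. With DF left out of the mesenchymal mean it was 12 and 14, beside 16.1% and 21.5% of all tested genes. The calls of Efna1, Epha4, Nrp1, Plxna4 and Sema4f were lost, and Efna5 (higher) and Sema6a (lower) were gained. With the pigment cell RNA subtracted it was 18 and 12, beside 26.9% and 17%. Nrp1, Plxna4, Plxnc1 and Sema3c were lost, and Efna5, Ephb1, Plxna1, Sema4b and Sema4g were gained as higher. With rescaling it was 15 and 14, beside 22.5% and 19.9%. Efna1, Plxna4 and Plxnc1 were then lost, and Ephb1, Plxna1 and Sema4b were gained as higher. Melanocytes were higher than the mean of ORS, Mx, DS and DP in 8 members (Nrp1, Plxna4, Plxnc1, Plxnd1, Sema3b, Sema4b, Sema6a and Sema6d) and lower in 22, against 10.5% and 15.2% of all. No ephrin and no EPH receptor was called higher in melanocytes, and 6 of the 8 ephrins (Efna1, Efna2, Efna3, Efna4, Efnb1 and Efnb3) and 6 of the 10 EPH receptors tested (Epha1, Epha2, Epha4, Ephb3, Ephb4 and Ephb6) were called lower. At an unadjusted p under 0.05 in limma, 1 ephrin and 0 EPH receptors were higher. On the TPM scale and with quantile normalization none was called higher in melanocytes either. The other 10 members lower in melanocytes were Nrp2, Plxna3, Plxnb1, Plxnb2, Sema3e, Sema3f, Sema4a, Sema4g, Sema6c and Sema7a. The median log2 difference of the tested members was 0.05 for DS minus DF, -0.45 for DS minus DP, 0.09 for DP minus DF, -0.05 for ORS minus Mx, 0.23 for epithelium minus mesenchyme and -0.98 for melanocytes minus the 4 others. Over all tested genes it was -0.02, -0.09, 0.06, -0.03, -0.07 and -0.07 in that order.

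**Figure D2:**
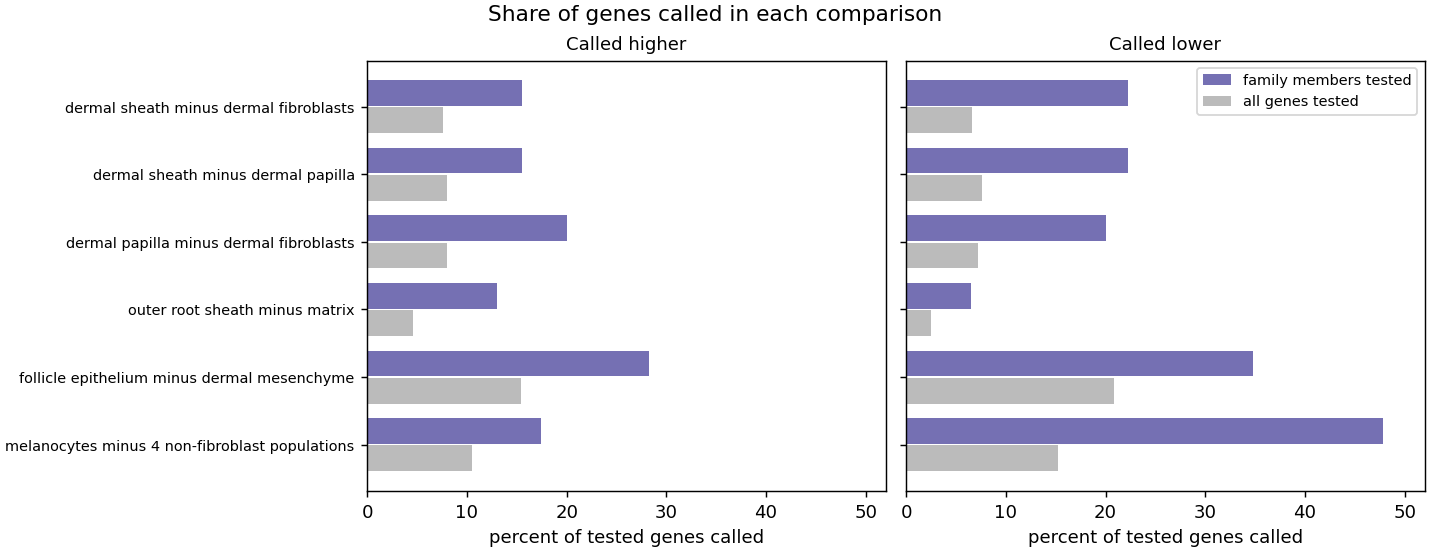
Percent of tested genes called higher (left) and lower (right) in the first-named population of each of the 6 comparisons, for the members tested (purple bars) above all genes tested (grey bars). Melanocytes against the 4 non-fibroblast populations have the longest purple bar, with 47.8% of the 46 members tested called lower beside 15.2% of all genes.

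With so few libraries, some of these calls rest on 1 of them. Of the 17 member calls between DS and DF, 10 were kept in each of 4 fits without 1 library, and the calls of Efna5, Efnb1, Epha1, Plxna2, Sema3c, Sema3f and Sema6a were not. Between DS and DP 11 of 17 were kept in every such fit (Efna2, Epha4, Ephb3, Sema3f and Sema4a were not, and Ephb1 was not tested without either DP library), and 5 members were lower in DS without DP replicate 1. Between DP and DF 10 of 18 were kept (Efna2, Efnb1, Epha3, Ephb1, Ephb6, Sema4f, Sema4g and Sema5a were not), and only 4 members were higher in DP without DP replicate 1 and 5 without DF replicate 2. Of the 9 calls between ORS and Mx, 3 were kept (Sema3e, Ephb1 and Efna5). Without ORS replicate 2, 3 members were higher and 0 lower in ORS by limma (4 were lower at an unadjusted p under 0.05), and 1 was lower without either Mx replicate. The 10 fits without 1 library kept 27 of 29 epithelial and mesenchymal calls (all but Efna1 and Sema3c) and 26 of 30 melanocyte calls (all but Efna2, Plxnb1, Sema4b and Sema4g).

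Among the class 3 semaphorins, secreted ligands, 3 genes of 1 stretch of chromosome 5 were high in the dermal sheath and 1 other in the outer root sheath. On mm10, Sema3d (chromosome 5, 12383385 to 12588948), Sema3a (chromosome 5, 13125414 to 13602565), Sema3e (chromosome 5, 14025276 to 14256689) and Sema3c (chromosome 5, 17574281 to 17730268) lie in this order, all on the plus strand. Their promoter windows are shown because the genes are neighbours with different patterns. Each window runs from 250 bases before to 50 bases after the start that RefSeq gives on GRCm38.p6, 5′ to 3′ on the gene's strand (Sema3d chr5:12382916-12383215, plus strand, Sema3a chr5:13396534-13396833, plus strand, Sema3e chr5:14025026-14025325, plus strand, Sema3c chr5:17574566-17574865, plus strand), and capitals mark ACAAAG on either strand.
Sema3d: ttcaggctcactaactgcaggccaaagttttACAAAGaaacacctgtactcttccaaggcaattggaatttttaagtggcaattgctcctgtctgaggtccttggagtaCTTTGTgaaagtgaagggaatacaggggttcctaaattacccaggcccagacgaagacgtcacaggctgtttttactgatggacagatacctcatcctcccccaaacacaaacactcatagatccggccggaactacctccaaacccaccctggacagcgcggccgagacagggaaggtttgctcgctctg
Sema3a: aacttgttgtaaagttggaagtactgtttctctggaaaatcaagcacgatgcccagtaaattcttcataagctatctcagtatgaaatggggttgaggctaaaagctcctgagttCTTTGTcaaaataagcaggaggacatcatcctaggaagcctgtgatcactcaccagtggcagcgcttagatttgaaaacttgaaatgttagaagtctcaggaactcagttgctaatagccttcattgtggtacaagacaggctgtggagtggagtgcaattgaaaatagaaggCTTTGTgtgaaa
Sema3e: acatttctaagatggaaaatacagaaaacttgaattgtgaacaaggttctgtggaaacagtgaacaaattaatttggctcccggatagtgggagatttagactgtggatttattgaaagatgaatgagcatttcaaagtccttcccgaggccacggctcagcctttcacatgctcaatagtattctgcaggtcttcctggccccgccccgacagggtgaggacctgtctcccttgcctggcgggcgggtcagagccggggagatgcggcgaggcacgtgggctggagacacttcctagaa
Sema3c: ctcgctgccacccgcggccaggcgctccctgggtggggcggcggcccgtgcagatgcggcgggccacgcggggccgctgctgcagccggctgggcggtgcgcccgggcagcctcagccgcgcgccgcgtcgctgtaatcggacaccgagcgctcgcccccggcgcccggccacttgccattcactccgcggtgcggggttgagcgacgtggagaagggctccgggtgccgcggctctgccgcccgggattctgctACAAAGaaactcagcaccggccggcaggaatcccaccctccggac

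The ACAAAG letters stood 2 times in the Sema3d window, 2 times in the Sema3a window, 1 time in the Sema3c window and not in the Sema3e window. They were in 16.7% of the 60 windows of members and in 18.7% of all 32851 windows in the RefSeq table. The RefSeq starts of Sema3a and Sema3c used here lie inside the gene spans given above. The GC content was 49.7% for Sema3d, 41.3% for Sema3a, 50.7% for Sema3e and 75.7% for Sema3c, beside a median of 64% over the members' windows and 52.7% over all windows.

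Sema3c, which acts in heart outflow and vessel formation, was the strongest of the 3 sheath semaphorins. Its level was 5.21 and 5.31 FPKM in Mc, 7.80 and 8.17 in ORS, 0.833 and 2.55 in Mx, 26.0 and 53.2 in DS, 1.14 and 1.71 in DP, and 7.72 and 13.6 in DF. Both DS libraries stood above the other 10, and DP and Mx held the lowest values. Sema3c averaged 39.6 ± 19.2 FPKM in DS and 1.43 ± 0.400 in DP (SD, n = 2 each), 15.9-fold higher in DS (log2 3.99 ± 0.41, adjusted p = 0.000556). Here and below, ± after a log2 difference is its moderated standard error from limma, which pools spread over the populations in the fit, and not an SD. A fold is 2 to the power of the log2 difference, taken on log2(FPKM + 1), and not the ratio of the FPKM means beside it. Against DF, at 10.7 ± 4.20 FPKM, it was 3.39-fold higher (log2 1.76 ± 0.41, adjusted p = 0.0245), a call lost without DS replicate 2 (log2 1.26, adjusted p = 0.113) and without DF replicate 1 (log2 1.38, adjusted p = 0.124). In the epithelium Sema3c was 3.52-fold higher in ORS than in Mx (log2 1.82 ± 0.41, adjusted p = 0.0204), and that call was lost without ORS replicate 1 (log2 1.85, adjusted p = 0.0967), ORS replicate 2 (log2 1.79, adjusted p = 0.120) or Mx replicate 1 (log2 1.34, adjusted p = 0.151).

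Sema3d, another secreted semaphorin, was at 0.442 and 3.88 FPKM in Mc, 0.339 and 0.229 in ORS, 0.267 and 0.0387 in Mx, 14.8 and 30.9 in DS, 1.06 and 1.12 in DP, and 3.02 and 5.33 in DF. The DS libraries were the 2 highest and did not overlap any other population. Sema3d was 10.8-fold higher in DS than in DP (log2 3.43 ± 0.40, adjusted p = 0.000978) and 4.46-fold higher in DS than in DF (log2 2.16 ± 0.40, adjusted p = 0.00862). Sema3a, the classic repellent of sensory and sympathetic axons, was at 1.70 and 2.55 FPKM in Mc, 1.33 and 1.43 in ORS, 0.528 and 0.177 in Mx, 16.2 and 38.7 in DS, 0.770 and 1.87 in DP, and 11.9 and 25.0 in DF. Here DS and DF overlapped, and both stood above the other 4 populations. Sema3a averaged 27.4 ± 15.9 FPKM in DS and 1.32 ± 0.777 in DP, an 11.6-fold difference (log2 3.53 ± 0.50, adjusted p = 0.00236). In DP it was 8.13-fold lower than in DF (log2 -3.02 ± 0.50, adjusted p = 0.00503).

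In all 3 of these genes DS replicate 2 held more than DS replicate 1. The same order of replicates was seen for each of them in DP, DF and Mc, but not for every one in ORS and Mx. Sema3e had another distribution. It is the ligand of Plxnd1 and needs no neuropilin. It was at 0.0940 and 0.240 FPKM in Mc, 20.8 and 29.7 in ORS, 3.71 and 2.33 in Mx, 0.186 and 0.367 in DS, 0.434 and 0.828 in DP, and 0.336 and 0.530 in DF, so both ORS libraries stood above all others and Mx came next. It averaged 25.3 ± 6.30 FPKM in ORS and 3.02 ± 0.973 in Mx, 6.54-fold higher in ORS (log2 2.71 ± 0.28, adjusted p = 0.000323). Over epithelium its mean was 14.1 FPKM, against 0.447 over dermal mesenchyme, 7.06-fold higher (log2 2.82 ± 0.18, adjusted p = 2.53e-07).

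**Figure D3:**
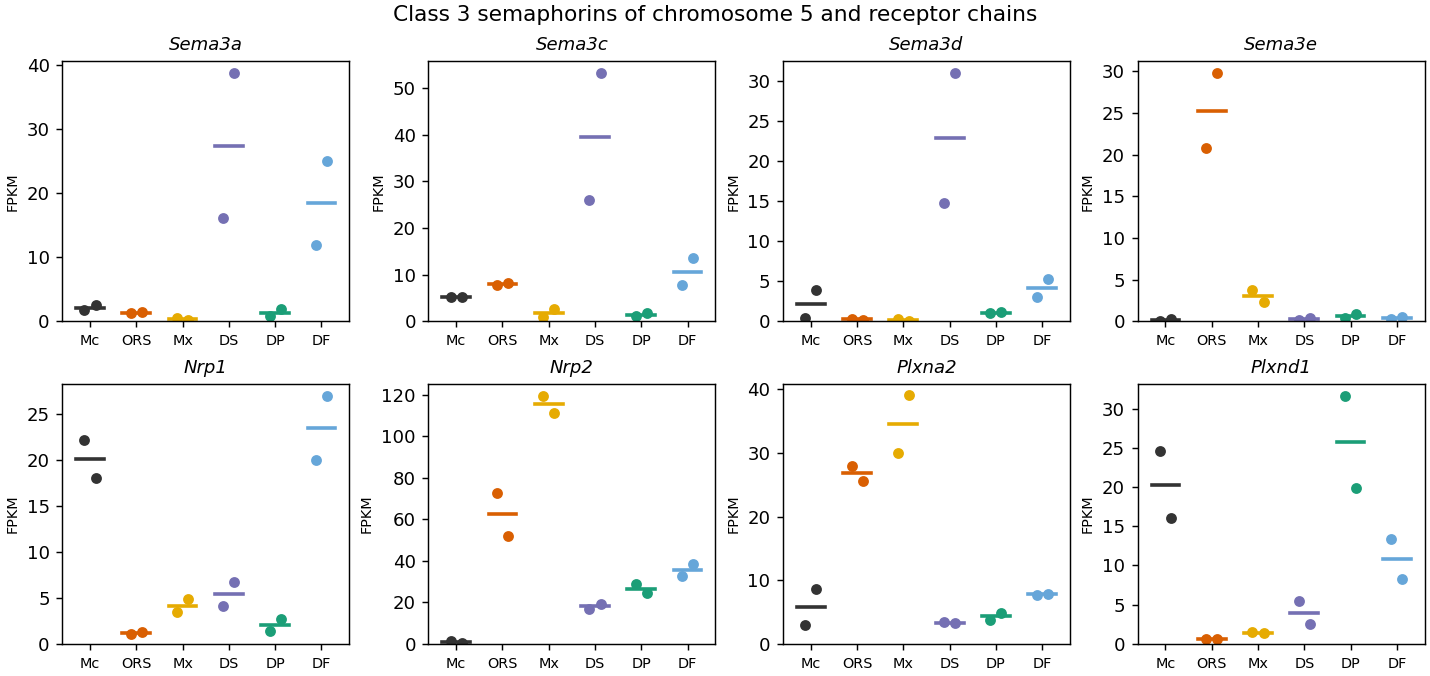
FPKM (linear axis) of 4 class 3 semaphorins of chromosome 5 (top) and of 4 receptor chains (bottom) in the 6 populations. Points are the 2 libraries of each population and the line is their mean. Sema3a, Sema3c and Sema3d peak in DS and Sema3e in ORS, while Nrp1 is high in Mc and DF, Nrp2 and Plxna2 in ORS and Mx, and Plxnd1 in Mc and DP.

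Of the other class 3 members, Sema3b had the highest mean over the 6 populations. Sema3b (chromosome 9, 107597674 to 107609229) was at 21.1 and 48.7 FPKM in Mc, 5.84 and 4.30 in ORS, 2.45 and 0.252 in Mx, 8.94 and 6.38 in DS, 7.27 and 4.14 in DP, and 45.2 and 33.8 in DF. Mc and DF overlapped at the top, and each of their libraries exceeded every library of the 4 other populations. In melanocytes Sema3b was 6.45-fold above the mean of the 4 non-fibroblast populations (log2 2.69 ± 0.40, adjusted p = 0.000264), and in DP it was 6.15-fold below DF (log2 -2.62 ± 0.33, adjusted p = 0.00145). Sema3f, a ligand of Nrp2, lies near Sema3b on chromosome 9 but was lowest in melanocytes, at 1.15 and 0.282 FPKM, and it was at 14.6 and 10.6 in DP and 16.6 and 10.99 in DF. Sema3g stayed at or below 3.97 FPKM in every library, its value in DS replicate 1.

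The class 4 semaphorins, membrane-bound ligands that mostly bind B plexins, were spread over the populations and 3 of the 6 reached 1 FPKM in all of them. Sema4b had the highest mean of the class, at 27.5 and 21.4 FPKM in Mc, 19.1 and 15.9 in ORS, 12.1 and 10.4 in Mx, 6.69 and 5.03 in DS, 16.0 and 7.87 in DP, and 10.03 and 8.59 in DF. The 2 Mc libraries were the highest, followed by ORS, and DS was lowest. Sema4d, the ligand of Plxnb1, was at 6.91 and 6.07 FPKM in Mc, 4.77 and 4.41 in ORS, 17.3 and 13.0 in Mx, 2.09 and 2.33 in DS, 3.80 and 4.77 in DP, and 4.12 and 2.52 in DF. Mx stood above all other populations, and Sema4d was 2.87-fold lower in ORS than in Mx (log2 -1.52 ± 0.28, adjusted p = 0.00733), though not in fits without ORS replicate 2 (log2 -1.48, adjusted p = 0.0626) or Mx replicate 1 (log2 -1.33, adjusted p = 0.0574). Sema4f was at 1.29 and 1.13 FPKM in Mc, 0.0302 and 0 in ORS, 0 and 0.194 in Mx, 0.782 and 0.114 in DS, 1.33 and 0.597 in DP, and 5.86 and 5.70 in DF. It was highest in DF without overlap, and 4.81-fold lower in DS than in DF (log2 -2.27 ± 0.33, adjusted p = 0.00248). Of the others, Sema4a was highest in ORS at 22.1 and 17.4 FPKM, Sema4g was at 9.93 and 10.6 FPKM in Mx and lowest in Mc replicate 2 at 0.681, and Sema4c ranged only from 3.50 to 11.3 FPKM over the 12 libraries.

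Classes 5 to 7 held both broad and narrow members. Sema5a, a membrane semaphorin with thrombospondin repeats, was at 10.1 and 22.6 FPKM in Mc, 32.6 and 36.1 in ORS, 9.17 and 9.55 in Mx, 23.7 and 36.0 in DS, 8.01 and 8.10 in DP, and 19.3 and 25.9 in DF. ORS and DS overlapped at the top and Mx and DP were the lowest. Sema6d, a transmembrane semaphorin that binds Plxna1, was at 97.7 and 108 FPKM in Mc, 0.160 and 0.214 in ORS, 0.176 and 0.403 in Mx, 2.55 and 3.32 in DS, 11.2 and 10.1 in DP, and 32.8 and 33.8 in DF. Melanocytes were far above the rest, DF came next, and the epithelial libraries were near 0. Sema6d averaged 103 FPKM in Mc and 3.52 over the 4 non-fibroblast populations, 35.9-fold higher (log2 5.17 ± 0.19, adjusted p = 1.88e-08). It was 2.98-fold lower in DS than in DP (log2 -1.57 ± 0.26, adjusted p = 0.00484), and 9.40-fold lower in epithelium than in mesenchyme (log2 -3.23 ± 0.16, adjusted p = 3.49e-08). The last difference was log2 -1.53 (2.89-fold) with the pigment cell RNA subtracted from DF and -2.45 with DF left out. Sema6a, a ligand of Plxna2 and Plxna4, also led in melanocytes, at 41.2 and 39.7 FPKM, with 22.1 and 31.5 in DS as the next highest. Sema7a, the single class 7 member and a known ligand of Plxnc1, was at 0.247 and 0.228 FPKM in Mc, 2.52 and 3.67 in ORS, 5.92 and 4.59 in Mx, 0.515 and 0.255 in DS, 2.94 and 1.21 in DP, and 1.62 and 0.589 in DF. Mx was highest without overlap, and melanocytes were among the lowest. Sema6c was a dermal member, at 6.15 and 2.59 FPKM in DS, 5.93 and 3.22 in DP and 6.13 and 3.24 in DF, and was listed at 0 in both Mc libraries.

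The neuropilins, co-receptors of class 3 semaphorins and of VEGF proteins, differed most in melanocytes, where Nrp1 was high and Nrp2 was lowest. Nrp1 (chromosome 8, 128358604 to 128503363), the receptor chain of Sema3a, was at 22.1 and 18.0 FPKM in Mc, 1.05 and 1.27 in ORS, 3.50 and 4.83 in Mx, 4.13 and 6.74 in DS, 1.46 and 2.67 in DP, and 19.96 and 27.0 in DF. Mc and DF formed the upper group and overlapped, and the other 4 populations stayed at or below 6.74 FPKM. Nrp1 was 8.06-fold lower in DP than in DF (log2 -3.01 ± 0.35, adjusted p = 0.000916) and 5.52-fold higher in Mc than in the 4 non-fibroblast populations (log2 2.46 ± 0.26, adjusted p = 1.86e-05). Nrp2 (chromosome 1, 62703285 to 62818695), the chain preferred by Sema3f and VEGF-C, was at 1.24 and 0.581 FPKM in Mc, 72.9 and 52.1 in ORS, 119 and 111 in Mx, 16.9 and 19.2 in DS, 28.9 and 24.3 in DP, and 32.5 and 38.6 in DF. The order of its levels was Mx, ORS, DF, DP, DS and Mc, with no overlap between neighbours in that order. It averaged 0.909 FPKM in melanocytes, against 55.6 over the 4 non-fibroblast populations, 23.5-fold lower (log2 -4.55 ± 0.20, adjusted p = 5.17e-08), and was 3.20-fold higher in epithelium than in mesenchyme (log2 1.68 ± 0.16, adjusted p = 5.87e-06).

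Among the plexins, Plxnc1 marked the melanocyte libraries. Plxnc1 (chromosome 10, 94790866 to 94944835), a receptor of Sema7a, was at 118 and 118 FPKM in Mc, 0.534 and 0.554 in ORS, 0.523 and 0.536 in Mx, 0.510 and 0.751 in DS, 4.36 and 5.51 in DP, and 25.8 and 29.0 in DF. The 2 Mc libraries were equal to 3 digits, DF came next, DP after it, and DS, ORS and Mx all stayed under 1 FPKM. In melanocytes it averaged 118 FPKM and over the 4 non-fibroblast populations 1.66, 54.5-fold higher (log2 5.77 ± 0.20, adjusted p = 1.01e-08), the largest difference of any member in that comparison. It was 17.5-fold lower in DS than in DF (log2 -4.13 ± 0.28, adjusted p = 8.48e-05), with the DF values as deposited. In DS it was also 3.63-fold lower than in DP (log2 -1.86 ± 0.28, adjusted p = 0.00303), where the pigment genes stood at 0.545% and 0.520% of the melanocyte level in the 2 DP libraries. The promoter window of Plxnc1 (chr10:94944796-94945095, minus strand, RefSeq, GRCm38.p6) is shown because this gene differed most, with GGGCGG on either strand in capitals.
Plxnc1: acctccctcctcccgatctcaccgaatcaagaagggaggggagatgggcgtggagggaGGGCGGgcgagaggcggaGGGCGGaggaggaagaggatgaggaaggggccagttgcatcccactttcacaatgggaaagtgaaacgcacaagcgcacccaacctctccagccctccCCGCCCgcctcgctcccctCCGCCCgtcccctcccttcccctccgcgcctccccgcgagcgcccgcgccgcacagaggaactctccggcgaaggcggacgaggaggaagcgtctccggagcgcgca

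GGGCGG stood 4 times in this window, which has a GC content of 69%, and it was in 75% of the 60 windows of members and 35.7% of all windows. CATGTG, the core bound by the melanocyte factor MITF, was not in it, and was in 8.33% of the members' windows and 14.2% of all. The other motifs searched on both strands were TCATGTG, which contains the MITF core, the E-box CANNTG, which the MITF core also matches, the letters TATAAA of a TATA box, the letters CTTTGA, and the CArG box. They were in 1.67%, 50%, 1.67%, 6.67% and 1.67% of the members' windows, against 3.77%, 72.3%, 13.6%, 16.0% and 1.63% of all windows.

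Plxna4, a partner of neuropilins, was at 44.7 and 64.8 FPKM in Mc, 0.0674 and 0.306 in ORS, 0.373 and 0.286 in Mx, 0.736 and 0.308 in DS, 1.13 and 1.32 in DP, and 15.0 and 15.1 in DF. Mc was highest, DF second and the rest near or under 1 FPKM. Plxna4 was 36.2-fold higher in Mc than in the 4 others (log2 5.18 ± 0.22, adjusted p = 4.45e-08), 10.6-fold lower in DS than in DF (log2 -3.41 ± 0.28, adjusted p = 0.000191) and 7.21-fold lower in DP than in DF (log2 -2.85 ± 0.28, adjusted p = 0.000366), with the DF values as deposited. Plxnd1, the receptor of Sema3e, was at 24.5 and 16.1 FPKM in Mc, 0.580 and 0.665 in ORS, 1.48 and 1.37 in Mx, 5.42 and 2.53 in DS, 31.6 and 19.9 in DP, and 13.4 and 8.32 in DF. DP and Mc overlapped at the top, and ORS was lowest. Plxnd1 was 5.48-fold lower in DS than in DP (log2 -2.45 ± 0.40, adjusted p = 0.00456). Plxnd1 is known from endothelial cells, so the 12 endothelial markers were read beside it. Their summed level was 57.5 to 84.0 FPKM in DS and 99.2 to 274 in DP. Sox18 made up most of it in DP, at 48.5 and 24.9 FPKM in DS and 257 and 88.2 in DP. Erg (17.4 and 20.3 FPKM in DS, 1.05 and 0.500 in DP) and Tek (6.77 and 7.07 in DS, 1.02 and 0.473 in DP) were higher in DS. The other 9 stayed at or below 3.54 FPKM in both populations, Cdh5, a defining endothelial cadherin, being at 2.59 and 1.59 FPKM in DS and 3.47 and 2.72 in DP. The part of endothelial RNA in the Plxnd1 difference was not tested.

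Of the remaining 6 plexins, Plxnb1 and Plxna2 were called higher in epithelium than in mesenchyme. Plxna1 had the highest mean of the plexins, at 29.9 and 17.5 FPKM in Mc, 42.8 and 34.2 in ORS, 56.3 and 53.9 in Mx, 31.8 and 24.2 in DS, 25.3 and 17.1 in DP, and 28.1 and 19.0 in DF, and was highest in Mx without overlap. Plxnb1, the receptor of Sema4d, was at 3.08 and 6.51 FPKM in Mc, 33.2 and 31.2 in ORS, 36.0 and 37.8 in Mx, 4.04 and 1.69 in DS, 2.99 and 2.51 in DP, and 5.99 and 4.76 in DF. ORS and Mx did not overlap with any other population. Its mean was 34.6 FPKM in epithelium and 3.67 in mesenchyme, 7.99-fold higher (log2 3.00 ± 0.23, adjusted p = 8.82e-07). Plxna2 was at 3.00 and 8.70 FPKM in Mc, 28.0 and 25.7 in ORS, 30.0 and 39.1 in Mx, 3.39 and 3.29 in DS, 3.77 and 4.86 in DP, and 7.67 and 7.88 in DF, again with ORS and Mx on top, and 5.35-fold higher in epithelium (log2 2.42 ± 0.24, adjusted p = 5.52e-06). Plxnb2 and Plxna3 were broad: Plxnb2 had at least 14.8 FPKM in every library, and Plxna3 was lowest in Mc, at 0.754 and 0.532 FPKM. Plxnb3 stayed at or below 0.220 FPKM.

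For 5 of the members highest in melanocytes, the fibroblast level was well under the melanocyte level. As a percent of the mean melanocyte level, DF held 21.9% and 24.6% for Plxnc1, 27.4% and 27.6% for Plxna4, and 31.9% and 32.9% for Sema6d, while the 7 pigment genes ranged from 15.9% to 66.9% in replicate 1 and from 26.2% to 62.3% in replicate 2. Sema6a stood at 29.9% and 27.3% and Sema4b at 41.0% and 35.1%. With the pigment cell share subtracted and negative remainders set to 0, all 5 were at 0 in both DF libraries. The differences between DS and DF then became log2 0.70 for Plxnc1, 0.59 for Plxna4 and 1.97 for Sema6d, and those between DP and DF 2.56, 1.15 and 3.54. Their sign follows from the 0 in DF, where any level in DS or DP comes out higher, and so it is no measurement of a difference. The direction of these 3 genes between follicle mesenchyme and fibroblasts was therefore not determined. Rescaling the remainder to the library's own FPKM sum leaves a value of 0 at 0.

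Nrp1 and Sema3b were about as high in DF as in Mc. Nrp1 stood in DF at 99.3% and 134% of its melanocyte level, and Sema3b at 129% and 96.8%, so that 10.2 and 17.7 FPKM of Nrp1 and 28.2 and 17.6 FPKM of Sema3b remained after subtraction. Between DP and DF both remained lower in DP under both forms of the subtraction, and so did Sema3a, Sema3c and Sema4f. With subtraction alone the difference of Nrp1 was log2 -2.27 and that of Sema3b -1.84, and the call of Sema5a was lost (log2 -0.77, adjusted p = 0.125). With rescaling, the DP calls of Efna2 (log2 1.01, adjusted p = 0.101), Efnb1 (log2 0.94, adjusted p = 0.174), Ephb6 (log2 0.90, adjusted p = 0.145) and Sema4g (log2 0.99, adjusted p = 0.113) were lost. Efnb3 and Epha4 remained higher in DS and in DP than in DF under both, while Epha3 was at 0 in DF after subtraction. Calls gained between DP and DF with subtraction alone were Plxnb2, Plxnd1, Sema4b, Sema4c, Sema4d and Sema6a, all higher in DP. With rescaling, Sema4b and Sema6a were gained as higher in DP, and Ephb2 and Nrp2 as lower. Sema4b and Sema6a were at 0 in DF after subtraction.

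Between DS and DF, Sema3b, Sema3f and Sema4f remained lower in DS under both, with Sema3b at log2 -1.44 under subtraction alone. The calls of Nrp1 (log2 -1.20, adjusted p = 0.0729) and Epha1 (log2 -1.08, adjusted p = 0.0538) were lost with subtraction alone. Those of Efna5 (log2 -0.69, adjusted p = 0.335, and with rescaling log2 -1.38, adjusted p = 0.161) and Plxna2 (log2 -0.47, adjusted p = 0.235, and with rescaling log2 -1.09, adjusted p = 0.0663) were lost under both. Efnb1, Sema3c and Sema3d lost their DS calls against DF with rescaling, with Sema3d at log2 1.94, adjusted p = 0.0525. Plxnb2 and Sema4b were gained as higher in DS with subtraction alone. With rescaling, Sema4b was gained as higher in DS and Nrp2 as lower. Sema4b was at 0 in both DF libraries after subtraction, so its sign under both forms follows from that 0 and is no measurement of a difference. As deposited, Sema4b averaged 5.86 FPKM in DS and 9.31 in DF. Of all tested genes, 32.7% were called higher in DS than in DF with subtraction alone and 14.9% with rescaling. The subtraction moved the median of all tested genes to 0.97 between DS and DF and 1.05 between DP and DF, and with rescaling to 0.44 and 0.51.

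**Figure D4:**
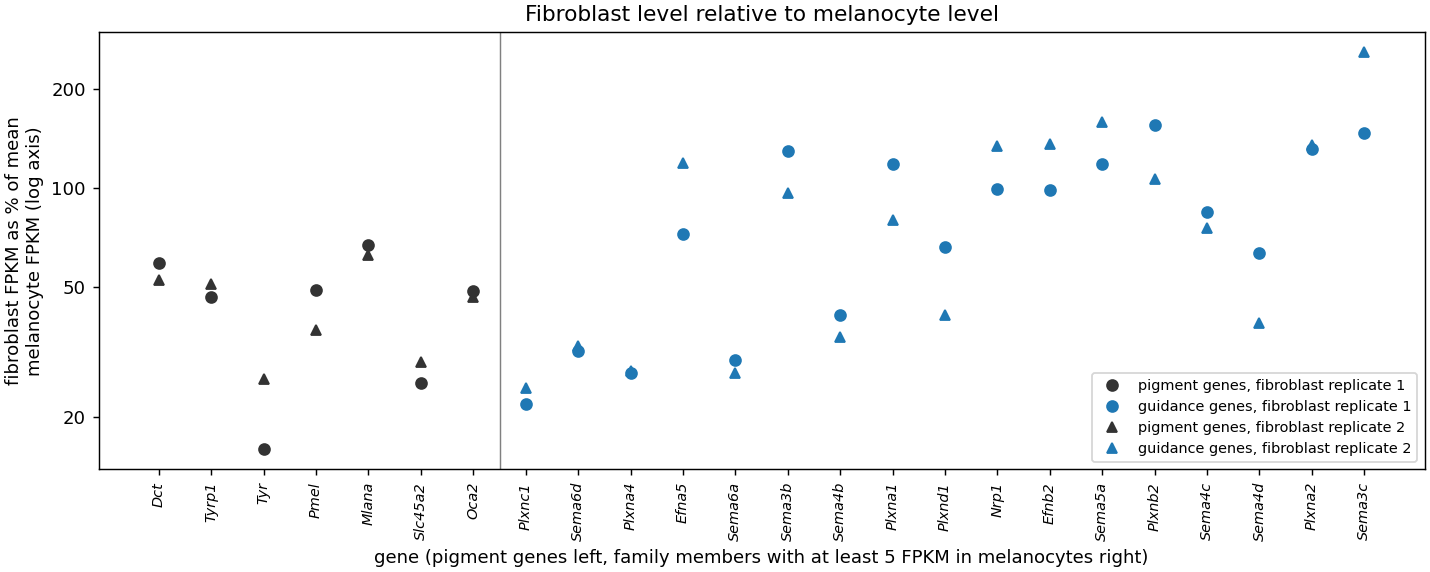
FPKM of each fibroblast library as a percent of the mean melanocyte FPKM (log axis) for 7 pigment genes (left of the line) and for the members with at least 5 FPKM in melanocytes (right), with circles for DF replicate 1 and triangles for DF replicate 2. Plxnc1, Sema6d, Plxna4, Sema6a and Sema4b lie between 21.9% and 41.0%, beside 15.9% to 66.9% for the pigment genes, and Nrp1 and Sema3b lie between 96.8% and 134%.

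The ephrin-A ligands, held to the membrane by a lipid anchor, varied from gene to gene, and 2 of the 5 (Efna1 and Efna4) were called higher in epithelium than in mesenchyme. Efna5 (chromosome 17, 62604184 to 62881317) had the highest mean of the ephrins, at 34.6 and 54.3 FPKM in Mc, 75.2 and 95.6 in ORS, 21.9 and 20.3 in Mx, 9.31 and 13.5 in DS, 21.4 and 32.4 in DP, and 32.2 and 53.0 in DF. ORS was above every other population and DS was lowest. It averaged 85.4 ± 14.4 FPKM in ORS and 21.1 ± 1.12 in Mx, 3.88-fold higher in ORS (log2 1.96 ± 0.33, adjusted p = 0.00428). Efna4 was at 0.523 and 0.360 FPKM in Mc, 18.3 and 15.5 in ORS, 12.9 and 22.9 in Mx, 8.02 and 3.82 in DS, 8.86 and 7.10 in DP, and 3.46 and 2.82 in DF. Melanocytes were lowest without overlap, 8.18-fold below the 4 non-fibroblast populations (log2 -3.03 ± 0.28, adjusted p = 8.64e-06). Efna1, the main ligand of Epha2, was likewise lowest in Mc, at 0.538 and 0.157 FPKM, against 12.7 and 16.2 in ORS and 12.7 and 10.4 in Mx. Efna2 was highest in DP, at 15.1 and 9.24 FPKM, and Efna3, listed at 0 in both Mc libraries, reached its highest values in Mx, 7.92 and 5.19 FPKM.

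The ephrin-B ligands span the membrane. Efnb2, known as an arterial marker, had the highest mean of the 3, at 11.1 and 21.9 FPKM in Mc, 35.6 and 43.0 in ORS, 45.2 and 64.0 in Mx, 18.5 and 25.4 in DS, 13.4 and 14.2 in DP, and 16.3 and 22.5 in DF. Both Mx libraries exceeded all others, followed by ORS. Efnb1, whose loss in humans disturbs craniofacial boundaries, was at 0.896 and 2.16 FPKM in Mc, 33.0 and 23.5 in ORS, 37.3 and 30.5 in Mx, 39.4 and 31.8 in DS, 40.3 and 23.0 in DP, and 13.7 and 7.45 in DF. Mc was lowest and DF next, both without overlap, while ORS, Mx, DS and DP overlapped. Efnb1 was 13.4-fold lower in Mc than in the 4 others (log2 -3.74 ± 0.30, adjusted p = 2.51e-06). Between DP and DF it was 2.83-fold higher in DP (log2 1.50 ± 0.37, adjusted p = 0.0281), a call lost without DP replicate 1 (log2 1.11, adjusted p = 0.176) and without DF replicate 2 (log2 1.10, adjusted p = 0.154).

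Efnb3 was a ligand of the follicle mesenchyme. It was at 0.0866 and 0.663 FPKM in Mc, 1.09 and 0.556 in ORS, 1.01 and 1.42 in Mx, 17.0 and 13.8 in DS, 31.6 and 23.3 in DP, and 3.13 and 3.62 in DF. DP was highest, DS next without overlap, then DF, and Mc, ORS and Mx near 1 FPKM or under. Efnb3 averaged 15.4 ± 2.25 FPKM in DS, 27.5 ± 5.89 in DP and 3.37 ± 0.346 in DF. It was 3.75-fold higher in DS than in DF (log2 1.91 ± 0.28, adjusted p = 0.00273) and 6.45-fold higher in DP than in DF (log2 2.69 ± 0.28, adjusted p = 0.000528). In epithelium it was 6.33-fold lower than in mesenchyme (log2 -2.66 ± 0.20, adjusted p = 7.82e-07), and log2 -3.43 with DF left out of the mesenchymal mean.

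The EPHA receptors, which mainly bind ephrin-A ligands, differed in where they were high, and Epha4 was high in ORS, Mx and DP together. Epha3 (chromosome 16, 63543534 to 63864175), a receptor of Efna5, was at 1.47 and 2.62 FPKM in Mc, 0 and 0 in ORS, 0 and 0 in Mx, 21.2 and 31.6 in DS, 4.07 and 5.26 in DP, and 0.695 and 0.757 in DF. Both DS libraries stood above all others, DP came second, and the gene was listed at 0 in every ORS and Mx library. Epha3 averaged 26.4 ± 7.33 FPKM in DS, 4.67 ± 0.844 in DP and 0.726 ± 0.0436 in DF. It was 15.6-fold higher in DS than in DF (log2 3.96 ± 0.31, adjusted p = 0.000156) and 4.77-fold higher in DS than in DP (log2 2.26 ± 0.31, adjusted p = 0.00192). Between epithelium and mesenchyme the log2 difference was -2.68 (adjusted p = 4.10e-07), with no fold given because the epithelial libraries are listed at 0, and -3.62 with DF left out.

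Epha4, which binds both A and B ephrins, had the highest mean of the EPHA receptors. It was at 0.203 and 0.374 FPKM in Mc, 28.3 and 41.4 in ORS, 22.6 and 28.5 in Mx, 11.1 and 16.2 in DS, 25.5 and 38.7 in DP, and 2.01 and 2.00 in DF. ORS, Mx and DP overlapped at the top, DS stood lower, DF lower still and Mc lowest. Epha4 was 4.80-fold higher in DS than in DF (log2 2.26 ± 0.32, adjusted p = 0.00218) and 10.8-fold higher in DP than in DF (log2 3.43 ± 0.32, adjusted p = 0.000289). It was 19.99-fold lower in melanocytes than in the 4 others (log2 -4.32 ± 0.24, adjusted p = 2.31e-07). Epha7, a receptor of A ephrins, was at 1.13 and 1.69 FPKM in Mc, 0.0107 and 0.239 in ORS, 0.0214 and 0.356 in Mx, 2.06 and 4.10 in DS, 13.4 and 21.9 in DP, and 0.800 and 1.66 in DF. DP exceeded all other populations without overlap. In DS it was 4.60-fold lower than in DP (log2 -2.20 ± 0.39, adjusted p = 0.00657), and in DP 8.29-fold higher than in DF (log2 3.05 ± 0.39, adjusted p = 0.00145).

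Epha1 and Epha2 were the epithelial EPHA receptors. Epha1 was at 0.452 and 1.14 FPKM in Mc, 31.6 and 38.7 in ORS, 38.7 and 31.4 in Mx, 3.10 and 2.44 in DS, 5.59 and 4.38 in DP, and 8.92 and 5.97 in DF. ORS and Mx overlapped with each other and stood above the rest, and Epha1 was 6.29-fold higher in epithelium than in mesenchyme (log2 2.65 ± 0.19, adjusted p = 6.29e-07). Epha2, the receptor through which ephrin-A1 acts on keratinocytes, was at 1.75 and 1.20 FPKM in Mc, 10.3 and 7.00 in ORS, 33.0 and 37.8 in Mx, 3.73 and 3.65 in DS, 5.42 and 3.23 in DP, and 4.70 and 2.16 in DF. Mx was highest and ORS second, each without overlap. Epha2 averaged 8.67 ± 2.36 FPKM in ORS and 35.4 ± 3.39 in Mx, 3.81-fold lower in ORS (log2 -1.93 ± 0.35, adjusted p = 0.00628), a call lost without ORS replicate 2 (log2 -1.68, adjusted p = 0.0703) and without Mx replicate 2 (log2 -1.83, adjusted p = 0.0588). Epha5, Epha6 and Epha10 were low throughout, Epha6 being highest in DP at 0.902 and 1.21 FPKM.

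The EPHB receptors, partners of the B ephrins, were all present in DP and 4 of 5 in DS, DF and ORS. Ephb4, known from veins as the partner of Efnb2, had the highest mean, at 3.43 and 3.48 FPKM in Mc, 23.8 and 17.0 in ORS, 15.8 and 11.3 in Mx, 21.5 and 14.9 in DS, 28.9 and 21.8 in DP, and 16.3 and 10.02 in DF. Mc was lowest without overlap. DP had the highest mean, but its lower library was below the upper ORS library and close to the upper DS library. Ephb2 was at 2.93 and 2.20 FPKM in Mc, 0.438 and 0.268 in ORS, 1.19 and 0.749 in Mx, 19.4 and 15.5 in DS, 4.72 and 2.86 in DP, and 10.1 and 7.33 in DF. DS stood above DF and DF above DP, with no overlap, and both epithelial populations were near 1 FPKM or under. Ephb2 was 5.79-fold lower in epithelium than in mesenchyme (log2 -2.53 ± 0.20, adjusted p = 9.34e-07).

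Ephb6, which lacks kinase activity, and Ephb1 were high in ORS and DP together. Ephb6 was at 1.17 and 0.646 FPKM in Mc, 25.1 and 21.4 in ORS, 9.03 and 3.86 in Mx, 4.07 and 4.50 in DS, 21.7 and 15.3 in DP, and 7.74 and 4.76 in DF. ORS and DP overlapped, and all other libraries were at or below 9.03 FPKM. In DS, Ephb6 was 3.64-fold lower than in DP (log2 -1.87 ± 0.32, adjusted p = 0.00591). Ephb1 was at 0.397 and 0.460 FPKM in Mc, 8.69 and 4.65 in ORS, 1.28 and 0.439 in Mx, 0.302 and 0.361 in DS, 2.55 and 2.48 in DP, and 0.311 and 0.436 in DF. Its order was ORS, then DP, with the rest near 1 FPKM or under, and it was 4.09-fold higher in ORS than in Mx (log2 2.03 ± 0.30, adjusted p = 0.00226). Ephb3 reached 33.3 and 15.7 FPKM in DS and 17.3 and 19.4 in ORS, which overlapped, and was lowest in Mc at 1.16 and 0.683.

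**Figure D5:**
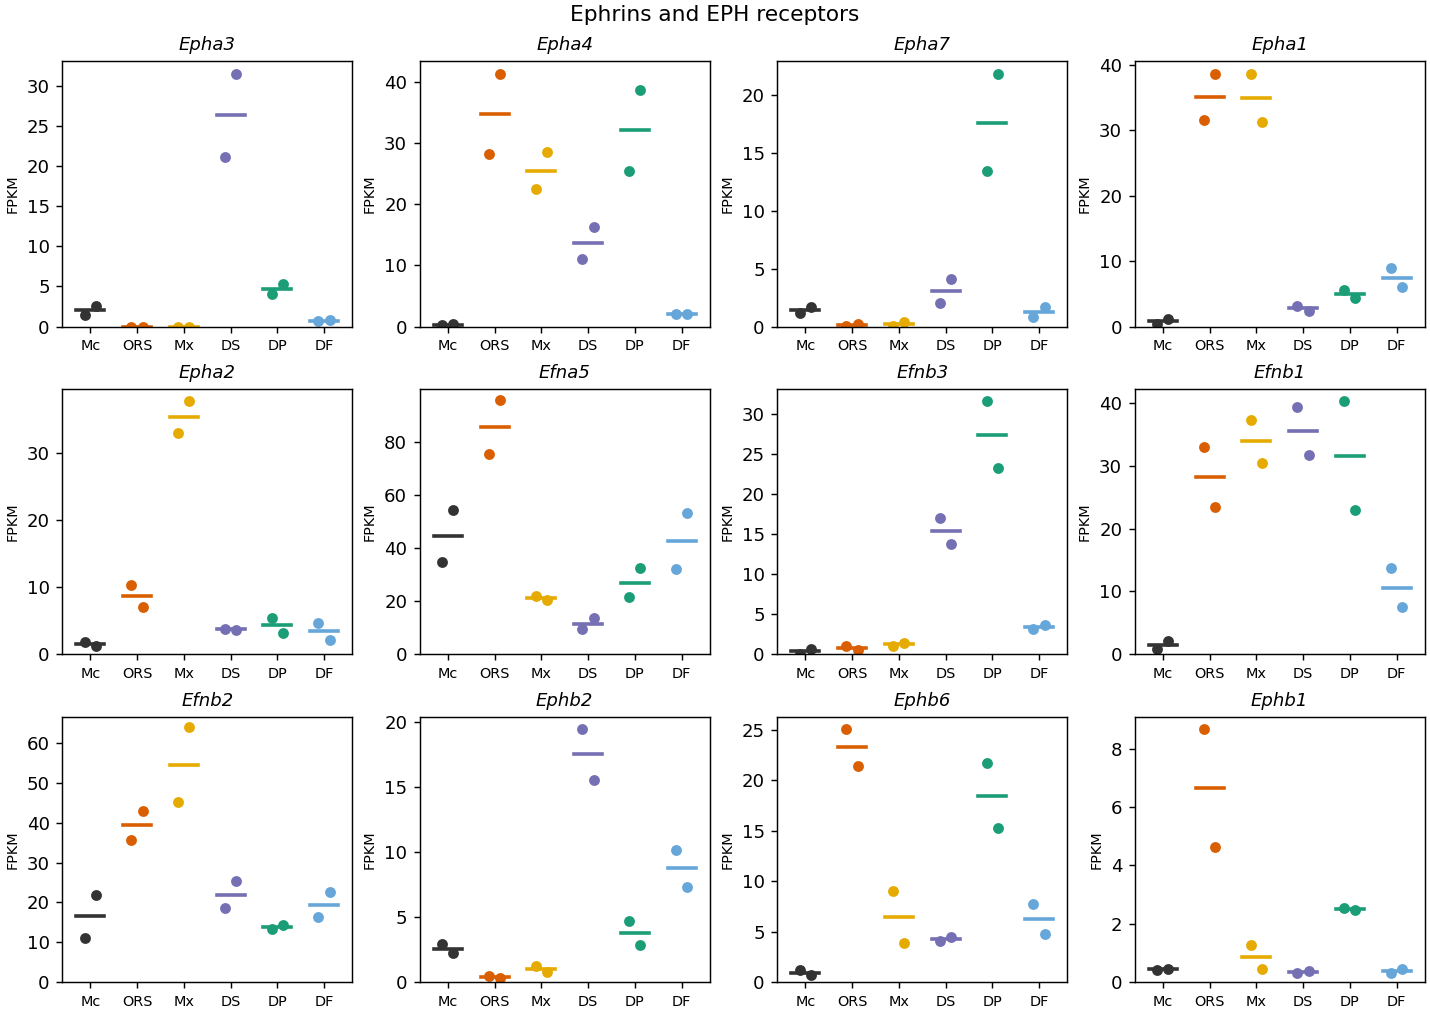
FPKM (linear axis) of 12 ephrins and EPH receptors in the 6 populations, with points for the 2 libraries and a line for their mean. Epha3 is highest in DS, Epha7 and Efnb3 in DP, Epha2 and Efnb2 in Mx, Efna5 in ORS, Epha1 in both epithelial populations, and Ephb6 in ORS and DP.

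Genes that act with these families were counted from lists of effectors and other guidance genes, with fibroblast values as deposited. Of all tested genes, 7.56% were called higher and 6.6% lower in DS than in DF, 7.96% and 7.56% in DS than in DP, and 8% and 7.16% in DP than in DF. The shares were 4.59% and 2.51% in ORS against Mx, 15.4% and 20.8% in epithelium against mesenchyme, and 10.5% and 15.2% in melanocytes against the 4 others. Of 19 tested genes of the SLIT, ROBO and netrin guidance list, 8 were higher and none lower in DS than in DF (limma, with 2 lower at an unadjusted p under 0.05). Slit2, a secreted repellent, averaged 125 FPKM in DS and 8.91 in DF (log2 3.67 ± 0.25, adjusted p = 8.77e-05). Between DP and DF, 8 of the 19 were higher in DP and 1 lower, led by the netrin receptor Dcc at 48.7 FPKM in DP, against 0.447 in DF (log2 5.07 ± 0.38, adjusted p = 0.000123). Between DS and DP, 5 were higher and 8 lower in DS. Among the 5 was Ntn1, the axon guidance cue netrin-1, at 88.7 FPKM in DS and 4.78 in DP (log2 3.96 ± 0.27, adjusted p = 0.000112). In ORS against Mx, 4 of 20 were higher and 2 lower, Unc5b, another netrin receptor, being 10.99-fold lower in ORS (log2 -3.46 ± 0.34, adjusted p = 0.000252). Against mesenchyme 1 of 20 was higher in epithelium and 9 were lower. In melanocytes 1 was higher and 11 were lower, with Slit3 at 0.461 FPKM in Mc and 148 over the 4 others (log2 -5.72 ± 0.26, adjusted p = 5.86e-08). The gene higher in melanocytes was Unc5d, which reached 1 FPKM only in Mc, so it could be tested only by being high there.

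Of 28 tested effectors and co-receptors of semaphorins and plexins, 4 were higher and 4 lower in DS than in DF, 5 higher and 3 lower in DS than in DP, and 4 higher and 7 lower in DP than in DF. In this fit Rap1gap reached 1 FPKM only in DP and Nrcam only in DF, so each could be tested only by being high there. Rap1gap counts among the genes higher in DP than in DS and DF, and Nrcam among those lower in DS and in DP than in DF. Met, the hepatocyte growth factor receptor that associates with B plexins, averaged 127 FPKM in Mc and 2.74 over the 4 non-fibroblast populations (log2 5.61 ± 0.23, adjusted p = 3.33e-08), and 0.229 FPKM in DS and 40.1 in DF (log2 -5.06 ± 0.32, adjusted p = 6.16e-05). Like Plxnc1, Met was thus higher in Mc and DF, and this DF value is as deposited, with the pigment cell RNA in it. Dpysl5, a cytoplasmic mediator of semaphorin signals, was 9.62-fold higher in DS than in DP (log2 3.27 ± 0.30, adjusted p = 0.000312). In ORS 4 were higher than in Mx and none lower (limma, with 2 lower at an unadjusted p under 0.05). In epithelium 3 were higher and 9 lower than in mesenchyme, with Mras, a small GTPase, at 0.763 and 11.96 FPKM (log2 -2.69 ± 0.18, adjusted p = 3.32e-07). In melanocytes 6 were higher and 7 lower than in the 4 others.

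Of 28 tested EPH and ephrin effectors, 4 were higher and 2 lower in DS than in DF, 6 higher and 2 lower in DS than in DP, and 2 higher and none lower in DP than in DF (limma, with 2 lower at an unadjusted p under 0.05). Grip2, a scaffold that binds the tails of B ephrins, averaged 7.42 FPKM in DS, against 0.0853 in DF and 0.431 in DP, and counts among the genes higher in DS. It reached 1 FPKM only in DS, so it could be tested only by being high there. In ORS 3 were higher than in Mx and none lower, also at an unadjusted p under 0.05 (0 lower). In epithelium 4 were higher and 2 lower than in mesenchyme, and in melanocytes 4 were higher and 6 lower than in the 4 others. Tiam1, an activator of RAC, was 7.36-fold higher in epithelium (log2 2.88 ± 0.18, adjusted p = 1.80e-07). Of the 7 tested VEGF ligands and receptors, which share the neuropilins, none was higher and 5 were lower in epithelium than in mesenchyme (limma, with 0 higher at an unadjusted p under 0.05). Vegfc, a ligand of Nrp2, averaged 0.446 FPKM in epithelium and 17.5 in mesenchyme (log2 -3.50 ± 0.23, adjusted p = 3.21e-07). None of the 7 was called between DS and DF (limma, with 0 higher and 2 lower at an unadjusted p under 0.05). Between DS and DP 2 were higher and 1 lower, between DP and DF 2 higher and 2 lower, between ORS and Mx 1 higher and 0 lower (1 lower at an unadjusted p under 0.05), and in melanocytes 2 higher and 2 lower than in the 4 others.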

How the data were processed

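RNA sequencing was done on 12 libraries of 6 sorted mouse skin populations, 2 each. Per the labels, only RNA whose integrity number reached 8 was taken on, 6 ng went into amplification (Ovation RNA-seq System V2), and libraries were made from 100 ng of cDNA. The authors deposited 1 table of FPKM. The tools named, per the submitters' processing notes, are Cufflinks 2.1.1, TopHat2 2.0.3 and Bowtie2, and the build is mm10, with no role or order given. The annotation, any filter and the use of strand are not given in the sources used here, so reads of overlapping or antisense genes cannot be told apart. Depth in reads is unknown and precision is the spread between 2 libraries.

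FPKM were analysed as log2(FPKM + 1), so folds understate changes of weakly expressed genes. Where populations were averaged, the mean was taken on the log2 scale, so a fold can also exceed the ratio of the FPKM means. A gene entered a fit where 2 or more of its libraries reached 1 FPKM. Differences were tested two-sided in limma 3.58.1 under R 4.3.3 (prior variance following intensity), with p-values adjusted by Benjamini-Hochberg over every gene in the fit. The 3 dermal comparisons came from the 6 dermal libraries (13219 genes, 3 residual degrees of freedom) and the other 3 from all 12 (13974 genes, 6 residual degrees of freedom). The test was first tried on simulated data. Pigment cell RNA was subtracted from each fibroblast library as the melanocyte mean times the median share of 7 pigment genes, with negative results set to 0.

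The members, gene lists and comparisons were chosen with earlier results of these data known. Described in full are Plxnc1, Nrp1, Nrp2, the 4 called members per comparison and direction with the largest difference (among those without overlap whose higher group averaged 5 FPKM or more), and the member with the highest mean of each subfamily. Of the lists, up to 2 called members with at least 5 FPKM were eligible per comparison. A few other members are given with their levels so that all 52 are accounted for. Gene positions are those of GENCODE M21 and promoter windows those of RefSeq on GRCm38.p6, which held 46 of the 52 members (60 windows). Plxna4 and Efnb3 had no window. Epha8 was not analysed here.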

Additional observations from a re-analysis of the deposited data

How the results depend on the processing

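The direction of every member call held under the alternatives tried wherever the gene was still tested, except that subtracting pigment cell RNA from the fibroblasts, with or without rescaling, changed the sign of 3 genes, which follows from their fibroblast values being set to 0: DS minus DF became 0.59 for Plxna4, 0.70 for Plxnc1 and 1.97 for Sema6d, and DP minus DF became 1.15, 2.56 and 3.54. Of the counts of members, 174 alternative values stayed within 1.5 times and 16 did not. With a pseudocount of 5, 3 members were lower in DS than in DP, 5 higher in DP than in DF and 10 lower in epithelium than in mesenchyme. Without a filter on low values, 4 were higher in DS than in DF, and on the TPM scale 16 were lower in DS than in DP. For these counts, and for those with a replicate block below, the share of all tested genes is not given here. They are therefore not read as a trait of the members. With the subtraction, 3 were lower in DS than in DF (6 with rescaling), beside 2.59% of all tested genes (4.4% with rescaling). Between DP and DF, 18 were then higher in DP and 5 lower, beside 38.2% and 3.44% of all tested genes. Among the 18, Epha3, Plxna4, Plxnc1, Sema4b, Sema6a and Sema6d were at 0 in both DF libraries after subtraction. Without 1 library, the counts higher and lower ranged from 5 to 6 and 7 to 8 (DS against DF), 6 to 7 and 5 to 8 (DS against DP), 4 to 6 and 7 to 9 (DP against DF), 3 to 6 and 0 to 2 (ORS against Mx, where limma gave 4 lower at an unadjusted p under 0.05 in the fit with 0), 12 to 15 and 15 to 16 (epithelium against mesenchyme) and 7 to 8 and 20 to 24 (melanocytes). The fits without 1 library have fewer residual degrees of freedom, and the cause of the other shifts was not tested. On the TPM scale the median of all genes moved to -0.15 (DS minus DF), -0.40 (DS minus DP), 0.23 (DP minus DF) and 0.10 (epithelium minus mesenchyme), against -0.02, -0.09, 0.06 and -0.07 as deposited. With the replicate number as a replicate block, all member calls were kept in every comparison (17, 17, 18, 9, 29 and 30), and members higher and lower in DP than in DF numbered 12 and 11. The numbers were not taken as pairing, since only 2 are shared and the labels tie them to no animal or day, though the deviations of equal numbers correlated at 0.19 to 0.54 across genes. Depth in reads is unknown, so no level can be given a counting error.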
